A study of Mus musculus with 10 samples.

Results

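The 40 genes described here encode the machinery of glucose uptake, glycolysis, lactate and pyruvate handling and the hypoxia response. They were chosen by name from a list of 40 symbols, and all 40 were among the 49671 gene rows of the deposited table. By role they comprise 13 genes of uptake and upper glycolysis, 5 of lower glycolysis, 7 of lactate and pyruvate fate, 7 HIF subunits and oxygen sensors and 8 hypoxia targets. PolyA RNA-seq was made from FACS-sorted epithelial cells of mouse skin epidermis. Every group carried Rosa-SmoM2, an allele of the constitutively active Smoothened receptor, which drives Hedgehog signalling and basal cell carcinoma-like growth in mouse skin.

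The 10 libraries formed 5 groups of 2. LOF cells came from Krt14-CREER/Rosa-SmoM2/Survivin LOF mice at 6 weeks, a time that the labels of all groups give beside TAM, without the age of the mice. GOF cells came from Inv-CREER/Rosa-SmoM2/Krt14rtTA/Survivin-GOF mice at 8 weeks. Both Krt14 control groups were Krt14-CREER/Rosa-SmoM2 cells, at 8 weeks and at 6 weeks, and Inv cells were Inv-CREER/Rosa-SmoM2 at 8 weeks. Krt14 drives Cre in basal keratinocytes, while involucrin, whose promoter gives the Inv driver its name, is made as keratinocytes differentiate. Krt14rtTA is named for GOF cells only, so its part and that of the Survivin transgene cannot be told apart. Both Inv libraries are described as pools, and what was pooled is not told. Whether the libraries of a group came from separate mice is not stated, so the p-values below measure the spread between libraries, which may be technical.

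Glycolysis splits glucose into pyruvate, and lactate dehydrogenase turns pyruvate into lactate, which monocarboxylate transporters carry out of the cell. Pyruvate dehydrogenase kinases hold pyruvate back from mitochondrial oxidation. In oxygenated cells the prolyl hydroxylases Egln1, Egln2 and Egln3 mark the HIF alpha subunits for capture by Vhl and destruction, so HIF activity is set largely at the protein level, which RNA does not report. When oxygen is low, HIF alpha joins Arnt and binds hypoxia response elements near glycolytic and hypoxia genes. The epidermis has no vessels of its own and is known as a mildly hypoxic, strongly glycolytic tissue.

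Library depth lay between 7693153 and 8870758 recovered reads, and values below are the deposited normalized counts, which sum to about the same total in every library. Birc5, which encodes Survivin, was at 382 and 429 in LOF cells, against 961 and 1103 in Krt14 6-week cells, and at 7277 and 16384 in GOF cells, against 237 and 265 in Inv cells. All 12 keratinocyte markers were detected in every library, with sums between 335518 and 523892, while the haemoglobin genes Hbb-bs, Hbb-bt and Hba-a1 were at 0 throughout. The list of 5 erythrocyte genes that holds them summed to 25 to 154 per library. The 8 fibroblast markers summed to between 5889 in the second Krt14 8-week library and 39234 in the first GOF library. The second GOF library stood apart: its 10 endothelial markers summed to 1643, against 509 in the first GOF library and 236 to 508 in the other groups. Xist, the X-inactivation transcript of female cells, was at 30024 and 59594 in LOF cells and at 7589 and 56185 in GOF cells, against 51 to 194 in the control groups, while Ddx3y of the Y chromosome was at 956 or more in every library. Mean Ddx3y was 1146 in LOF cells, against 2466 in Krt14 6-week cells (limma adjusted p = 0.0583). It was 2149 ± 1667 in GOF cells, against 2768 ± 200 in Inv cells (SD, n = 2 libraries each). Xist, and possibly the share of female cells, thus differed along with the Survivin alleles, and the parts of these cannot be told apart. Pgk1 and Pdk3 are the 2 members on the X chromosome. In bulk libraries, fewer cells of a type and less RNA per cell cannot be told apart either.

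Promoters are shown for 6 members that the results turn on: a glucose transporter, 2 enzymes of the lower pathway and 3 genes of the hypoxia response. The sequences are from RefSeq on GRCm38.p6, run 5′ to 3′ on the gene's strand and span 250 bases before to 50 after an annotated start. Capitals mark the core of the hypoxia response element, ACGTG or GCGTG, searched on both strands, so that a core on the opposite strand reads CACGT or CACGC and adjoining cores form 1 run. The windows are chr4:119108495-119108794 (+) for Slc2a1, chrX:106186850-106187149 (+) for Pgk1, chr7:46845554-46845853 (+) for the first of the Ldha starts, chr12:54203825-54204124 (-) for Egln3, chr7:138909457-138909756 (-) for Bnip3 and chr4:43506776-43507075 (+) for Car9.
Slc2a1: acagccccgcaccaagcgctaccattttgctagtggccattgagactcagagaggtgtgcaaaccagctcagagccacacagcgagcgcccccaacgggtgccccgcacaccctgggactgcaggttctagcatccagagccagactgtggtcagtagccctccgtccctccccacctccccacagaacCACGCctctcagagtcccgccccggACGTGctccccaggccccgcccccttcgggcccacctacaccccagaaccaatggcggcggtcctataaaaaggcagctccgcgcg
Pgk1: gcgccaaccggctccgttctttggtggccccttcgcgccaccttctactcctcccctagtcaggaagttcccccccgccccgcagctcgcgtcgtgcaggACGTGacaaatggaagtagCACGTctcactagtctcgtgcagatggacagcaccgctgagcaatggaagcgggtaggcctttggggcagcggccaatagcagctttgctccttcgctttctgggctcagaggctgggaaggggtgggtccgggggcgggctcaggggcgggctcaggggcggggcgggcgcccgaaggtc
Ldha: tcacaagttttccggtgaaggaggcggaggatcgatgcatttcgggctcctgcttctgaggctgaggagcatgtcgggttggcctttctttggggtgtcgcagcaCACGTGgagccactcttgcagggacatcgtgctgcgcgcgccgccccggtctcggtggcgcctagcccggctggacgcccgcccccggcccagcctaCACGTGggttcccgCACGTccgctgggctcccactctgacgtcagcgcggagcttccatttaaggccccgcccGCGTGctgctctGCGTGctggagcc
Egln3: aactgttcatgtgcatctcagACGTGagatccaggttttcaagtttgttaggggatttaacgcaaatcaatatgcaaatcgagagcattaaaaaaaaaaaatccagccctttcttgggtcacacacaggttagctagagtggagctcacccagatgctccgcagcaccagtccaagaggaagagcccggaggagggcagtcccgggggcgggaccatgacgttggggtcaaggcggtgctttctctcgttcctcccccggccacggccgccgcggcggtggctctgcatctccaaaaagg
Bnip3: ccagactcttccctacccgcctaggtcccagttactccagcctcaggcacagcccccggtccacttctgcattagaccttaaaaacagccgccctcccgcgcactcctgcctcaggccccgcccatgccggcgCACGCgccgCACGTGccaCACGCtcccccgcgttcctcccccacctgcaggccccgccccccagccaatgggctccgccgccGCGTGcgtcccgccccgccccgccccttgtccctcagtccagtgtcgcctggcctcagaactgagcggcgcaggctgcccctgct
Car9: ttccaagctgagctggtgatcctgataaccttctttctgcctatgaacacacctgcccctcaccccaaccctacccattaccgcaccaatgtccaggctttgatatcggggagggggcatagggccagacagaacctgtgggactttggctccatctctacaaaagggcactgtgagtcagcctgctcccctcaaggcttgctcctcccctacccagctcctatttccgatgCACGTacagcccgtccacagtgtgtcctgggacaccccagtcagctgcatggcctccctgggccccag
At least 1 core was present in 43 of 53 windows of the 37 members that matched the RefSeq table (81.1%), against 43.8% of all 32851 windows. The ACGTG form was in 54.7% of the members' windows, against 19.6% of all windows. ACGTG also lies inside the E-box CACGTG, a motif of Myc and other factors, which was in 15.1% of the members' windows and 7.15% of all windows. The list holds several textbook HIF targets, and the letters alone do not show binding. Both forms of the core hold the bases CG, and the windows were not matched for these. By LOF call, ACGTG was in 42.9% of windows of members that rose, 57.9% of those that fell and 60% of those not called. For GOF against Inv cells the shares were 75%, 100% (2 windows) and 46.2%. These differences were not tested. In the order of the results, the Slc2a1 window held 2 cores, that of Pgk1 2, that of Ldha 7, that of Egln3 1, that of Bnip3 5 and that of Car9 1. Each CACGTG holds a core on either strand and counts as 2, so the Ldha and Bnip3 windows, which contain it, have fewer separate sites than cores.

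Levels spanned a wide range. Per kilobase of exon and averaged over the 10 libraries, pyruvate kinase Pkm led with 2705 normalized counts per kb, followed by Ldha with 2578, Aldoa with 2040 and Gapdh with 1395, while Slc2a3, a transporter best known from neurons and white blood cells, was lowest at 5.34. Krt14 6-week cells had the highest group mean for 17 of the 40 members, more than any other group. GOF cells were highest for 12 members, LOF cells for 7, Inv cells for 3 and Krt14 8-week cells for 1. At the other end, Inv cells had the lowest mean for 14 members.

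**Figure D1:**
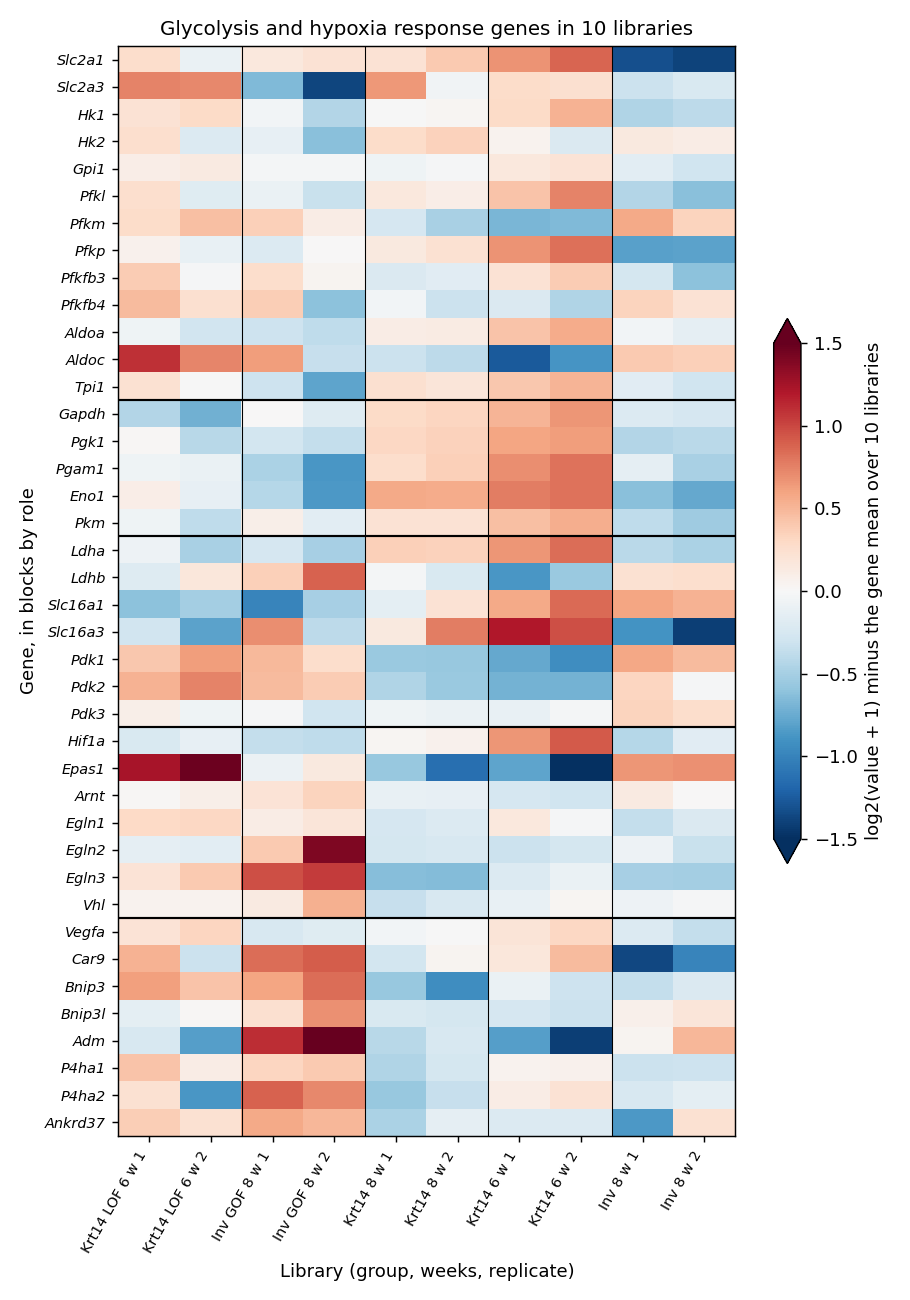
Level of the 40 members (rows, in blocks by role) in the 10 libraries (columns, in pairs by group), as log2(value + 1) minus the gene's mean over the 10 libraries. Most glycolytic rows are red in the Krt14 6-week pair, and most hypoxia target rows are red in the GOF pair.

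The first comparison asked what SmoM2 cells of the Krt14 driver express when Survivin is reduced. In LOF cells the enzymes of lower glycolysis fell as a block, along with the glucose transporter Slc2a1, lactate dehydrogenase Ldha, both lactate transporters and Hif1a. Epas1, which encodes HIF-2alpha, the kinases Pdk1 and Pdk2 and the isozymes Aldoc, Pfkm and Ldhb rose. In all, 13 members fell and 9 rose, 55% of the list, where 30.9% of the 21995 genes tested were called by limma at an adjusted p below 0.05 (19.5% higher and 11.4% lower). The list's median log2 change was 0.05, against 0.16 for all genes. That general shift drops to 0.02 when libraries are rescaled by the median of ratios, and the members then split into 6 higher and 14 lower.

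Glucose enters keratinocytes largely through Slc2a1, which was at 3779 and 2943 in LOF cells, against 5023 and 5746 in Krt14 6-week cells. The pairs did not overlap, and Slc2a1 fell by 0.69 ± 0.13 on the log2 scale (SE, limma adjusted p = 0.00227). Among the phosphofructokinases, which make the committed step, Pfkp was at 2614 and 2307 in LOF cells, against 3975 and 4422 (log2 change -0.77 ± 0.11, limma adjusted p = 0.000443). Pfkl, the liver-type form, was at 1024 and 756, against 1156 and 1434 (log2 change -0.55 ± 0.17, limma adjusted p = 0.0302). Pfkm, the muscle-type form, went the other way, with 531 and 602 in LOF cells, against 273 and 277 (log2 change 1.04 ± 0.16, limma adjusted p = 0.000735).

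The aldolases showed the same opposition. Aldoa, the main form, was at 5563 and 4767 in LOF cells, against 7830 and 8541 in Krt14 6-week cells (log2 change -0.67 ± 0.10, limma adjusted p = 0.000551). Aldoc, best known from brain, was at 503 and 393 in LOF cells, against 98 and 127 (log2 change 1.99 ± 0.28, limma adjusted p = 0.000471). The other 7 members of this block did not pass, among them Slc2a3 (60 and 59 in LOF cells, against 43 and 42). The hexokinases Hk1 (1673 and 1768, against 1758 and 2077) and Hk2 (6071 and 4429, against 5267 and 4370) trap glucose as its phosphate, and their pairs overlapped. Glucose phosphate isomerase Gpi1 stood at 4842 and 4954 in LOF cells, against 5042 and 5212, and triose phosphate isomerase Tpi1 at 2468 and 2095, against 2795 and 2991. The bifunctional regulators Pfkfb3 (484 and 368, against 433 and 483) and Pfkfb4 (184 and 156, against 113 and 96), which set the level of a phosphofructokinase activator, had log2 changes of -0.12 ± 0.18 and 0.70 ± 0.31.

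All 5 members of lower glycolysis fell. Gapdh, which makes the first NADH of the pathway, was at 4074 and 3360 in LOF cells, against 7901 and 8770 in Krt14 6-week cells, so that the higher LOF value was below the lower control value by a wide margin. The means were 3717 ± 505 and 8336 ± 614 (SD, n = 2 libraries each), and Gapdh fell by 1.17 ± 0.11 on the log2 scale (limma adjusted p = 3.84e-05). Pgk1, the first ATP-making step, was at 1955 and 1452, against 2926 and 2988 (log2 change -0.81 ± 0.13, limma adjusted p = 0.000942). The mutase Pgam1 was at 709 and 695 in LOF cells, against 1202 and 1307 (log2 change -0.84 ± 0.16, limma adjusted p = 0.00278). The enolase Eno1 was at 4250 and 3642, against 6757 and 7004 (log2 change -0.81 ± 0.13, limma adjusted p = 0.00127). Pkm, the last step, was at 12542 and 10101, against 18028 and 19183 (log2 change -0.72 ± 0.12, limma adjusted p = 0.00119). Genes outside the list were mixed. Of 23 others of hexose transport and glycolysis tested, 6 rose and 5 fell (47.8%, against 30.9% of all genes tested). Their median log2 change was 0.38, against 0.16 for all genes. Slc2a4 rose (318 and 397 in LOF cells, against 106 and 86), and Slc2a9 fell (228 and 140, against 717 and 835).

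A near-identical copy of Eno1 moved far more. Eno1b, annotated as protein-coding, was at 30 and 14 in LOF cells, against 1242 and 1439 in Krt14 6-week cells, and at 522 and 388 in GOF cells, against 492 and 448 in Inv cells. Reads of the pair may have been divided between them, so each value is uncertain on its own. Their sum was 4280 and 3656 in LOF cells, against 7999 and 8443, and replacing Eno1 by that sum, an alternative chosen after seeing the data, changed no count of members called.

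In the lactate branch, Ldha was at 7627 and 5750 in LOF cells, against 12731 and 14416 in Krt14 6-week cells (log2 change -1.03 ± 0.13, limma adjusted p = 0.000244). Ldhb, the form that favours the return of lactate to pyruvate, was at 818 and 1049, against 509 and 636 (log2 change 0.70 ± 0.19, limma adjusted p = 0.0164). The lactate transporter Slc16a1 (MCT1) was at 855 and 923 in LOF cells, against 1954 and 2366 (log2 change -1.27 ± 0.17, limma adjusted p = 0.00036). Slc16a3 (MCT4), the exporter typical of glycolytic cells, was at 228 and 158, against 641 and 545 (log2 change -1.63 ± 0.35, limma adjusted p = 0.0049). Both pyruvate dehydrogenase kinases that changed went up. Pdk1 was at 3504 and 4099 in LOF cells, against 1553 and 1382 (log2 change 1.37 ± 0.12, limma adjusted p = 1.84e-05), and Pdk2 at 362 and 420, against 153 and 153 (log2 change 1.34 ± 0.18, limma adjusted p = 0.000288). Pdk3 was at 1016 and 911, against 884 and 935, and its pairs overlapped.

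**Figure D2:**
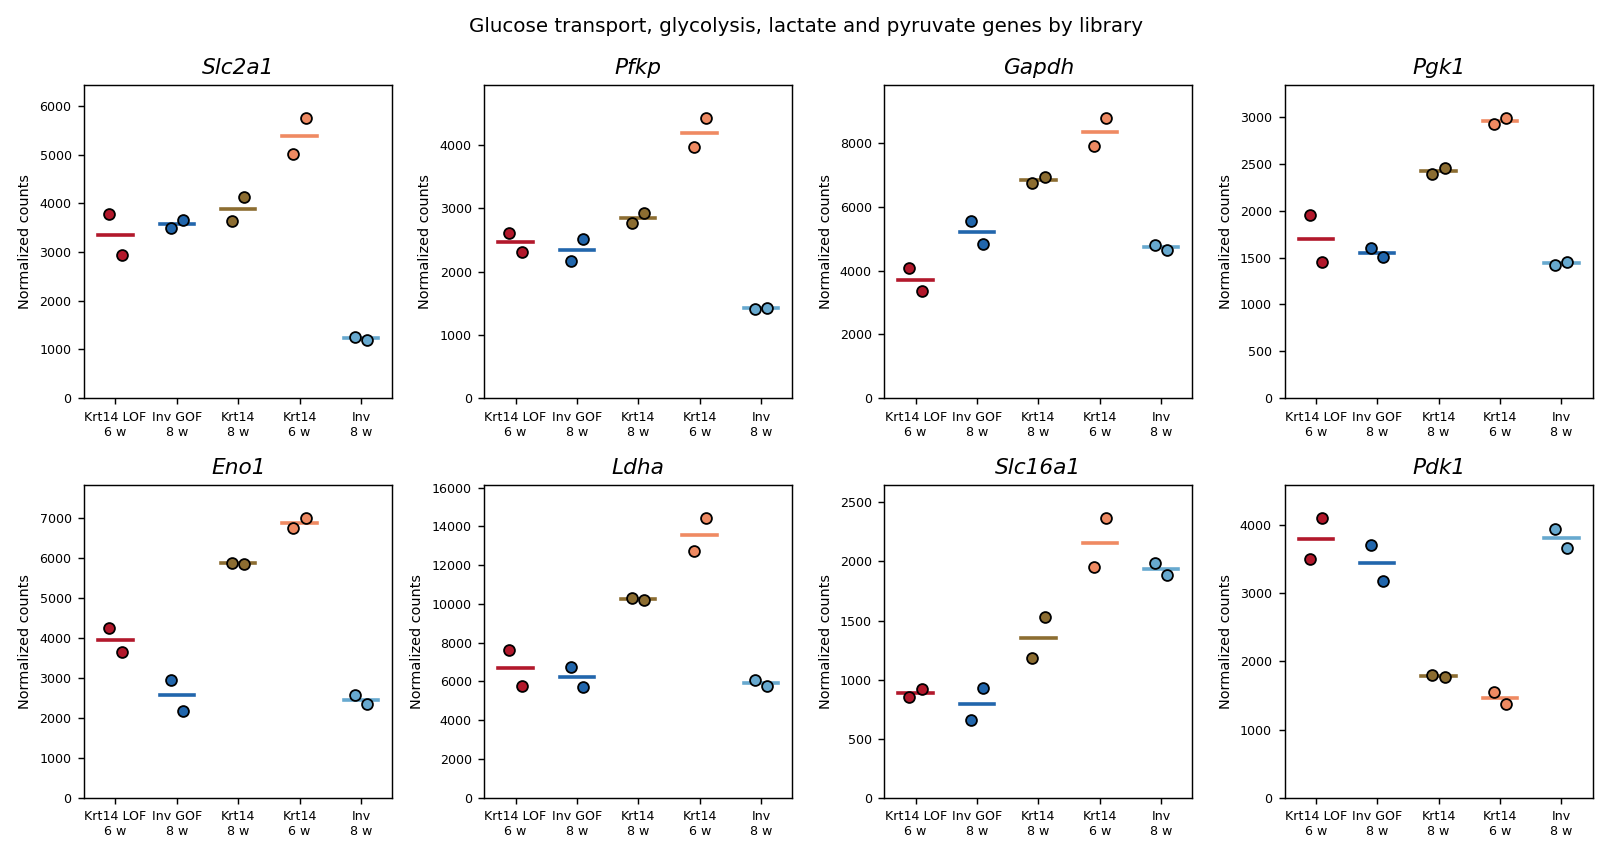
Normalized counts of 8 members in each library (points) with the mean of each pair (bars), with groups along the horizontal axis. Gapdh, Pgk1, Eno1 and Ldha are lower in LOF than in Krt14 6-week cells, and Pdk1 is higher; Slc2a1 and Pfkp are higher in GOF than in Inv cells.

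The HIF alpha genes, Hif1a at chr12:73901375-73947530 (+) and Epas1 at chr17:86753700-86833410 (+) on GRCm38, moved in opposite directions. Hif1a, the subunit linked most closely to glycolytic targets, was at 3747 and 4027 in LOF cells, against 6955 and 8300 in Krt14 6-week cells (log2 change -0.97 ± 0.11, limma adjusted p = 0.000133). Epas1 was at 2468 and 2911, against 607 and 336 (log2 change 2.57 ± 0.25, limma adjusted p = 4.27e-05), the largest change of any member in this comparison. Their partner Arnt was at 1988 and 2095, against 1656 and 1604 (log2 change 0.32 ± 0.10, limma adjusted p = 0.0267). Egln3, a prolyl hydroxylase that is itself a HIF target, was at 1056 and 1202, against 798 and 855 (log2 change 0.45 ± 0.11, limma adjusted p = 0.0123). Egln1 (2562 and 2584, against 2327 and 2066), Egln2 (657 and 648, against 576 and 600) and Vhl (345 and 343, against 306 and 339) did not pass, with log2 changes of 0.23, 0.15 and 0.09.

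Of the 8 hypoxia targets, 1 was called. Bnip3, a mitochondrial protein of mitophagy, was at 704 and 616 in LOF cells, against 428 and 370 in Krt14 6-week cells (log2 change 0.73 ± 0.17, limma adjusted p = 0.00851). An annotated antisense transcript shares 22.3% of the exon bases of Bnip3 and was at 402 and 314, against 251 and 228. The strand setting of the counting is not given, so reads of both may be mixed. Vegfa, the main angiogenic factor, was at 1145 and 1234, against 1133 and 1232, with a log2 change of 0.01 ± 0.11. Carbonic anhydrase Car9 (62 and 34, against 48 and 60), the mitophagy receptor Bnip3l (2466 and 2758, against 2284 and 2185) and the collagen prolyl hydroxylases P4ha1 (2116 and 1705, against 1632 and 1648) and P4ha2 (162 and 75, against 149 and 161) did not pass. Ankrd37 was at 105 and 95, against 70 and 70. The vasodilator peptide Adm was near the floor of 3 reads in both groups (8 and 5, against 5 and 3).

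When each of the 4 libraries of this comparison was left out in turn, 16 of the 22 calls held every time. Arnt lost its call each time (limma adjusted p 0.0644 to 0.141). Pfkl (0.246) and Ldhb (0.145) lost theirs without the second LOF library, and so did Egln3 (0.106) and Slc16a3 (0.0573). Without the first LOF library Bnip3 missed (0.0681). Leaving out a Krt14 6-week library ended the calls of Ldhb (0.117) and Egln3 (0.0776) for the first and of Pfkl (0.224) and Bnip3 (0.0772) for the second. With the Xist level as a covariate, which nearly follows the groups, the calls kept were 2, Aldoc (log2 change 4.78, limma adjusted p = 0.00799) and Slc16a1 (-2.71, limma adjusted p = 0.0179), and 6 others turned sign.

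Other cell programmes moved with the glycolytic block. All 12 mitosis genes fell in LOF cells (sums 31340 and 32072, against 52792 and 51115), 6 of 9 sebocyte markers rose (sums 31116 and 47083, against 16980 and 16135) and 7 of 8 melanocyte markers rose (3175 and 3016, against 942 and 901). Of 10 genes of dissociation stress, 5 fell and 3 rose. The 8 fibroblast markers summed to 20579 and 21234 in LOF cells, against 6983 and 6543, with 2 called higher and 1 lower. The 10 macrophage and dendritic markers summed to 767 and 1183, against 337 and 301, with 2 of 7 tested called higher. Their part in the result was not tested.

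**Figure D3:**
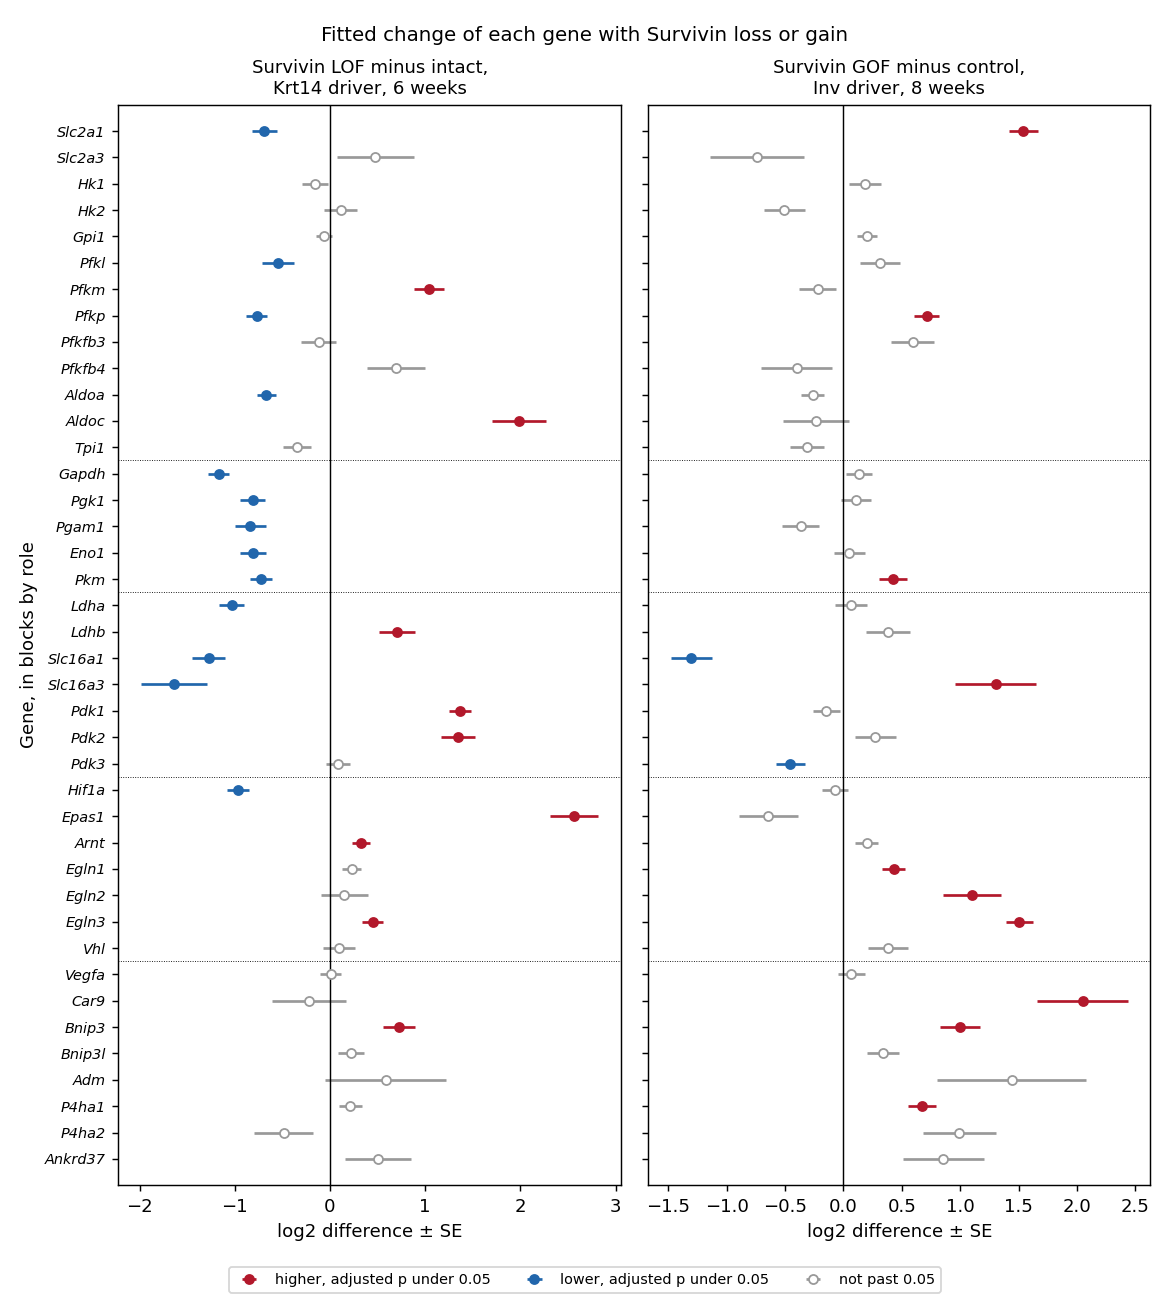
Fitted log2 difference of each member (points, SE as bars) for LOF minus Krt14 6-week cells (left) and GOF minus Inv cells (right), with filled points past an adjusted p of 0.05. The lower glycolysis block lies wholly left of 0 in the LOF panel, and the hypoxia target block lies right of 0 in the GOF panel, where 3 of its 8 points are filled.

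The second comparison asked what SmoM2 cells of the Inv driver express with added Survivin. GOF cells had more mRNA of the glucose transporter Slc2a1, of all 3 prolyl hydroxylases and of the hypoxia targets Car9, Bnip3 and P4ha1 than Inv cells, while most glycolytic enzymes did not pass the test. In all, 10 members rose and 2 fell, 30% of the list, where 15.3% of all genes tested were called (6.87% higher and 8.4% lower). The median log2 change was 0.20 for the list and -0.01 for all genes.

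Slc2a1 was at 3497 and 3661 in GOF cells, against 1254 and 1202 in Inv cells, and the pairs lay far apart (log2 change 1.54 ± 0.13, limma adjusted p = 3.9e-05). Pfkp was at 2174 and 2509 in GOF cells, against 1416 and 1432 (log2 change 0.71 ± 0.11, limma adjusted p = 0.00198), and Pkm at 14004 and 11730, against 10100 and 9053 (log2 change 0.42 ± 0.12, limma adjusted p = 0.0371). No other member that encodes an enzyme between glucose and pyruvate passed. Of 23 other genes of hexose transport and glycolysis tested, 2 rose and 2 fell (17.4%, against 15.3% of all genes tested). The mutase Pgam2 was among those that rose, at 202 and 172 in GOF cells, against 82 and 48 (log2 change 1.56 ± 0.33, limma adjusted p = 0.0105). Gapdh was at 5567 and 4826 in GOF cells, against 4815 and 4652 (log2 change 0.13 ± 0.11), Pgk1 at 1599 and 1503, against 1425 and 1459, and Eno1 at 2953 and 2184, against 2565 and 2342, its pairs overlapping. Hk2 was at 4672 and 3287, against 5620 and 5517 (log2 change -0.51 ± 0.18, limma adjusted p = 0.0771), and Pfkfb3 at 445 and 383, against 308 and 242 (log2 change 0.59 ± 0.18, limma adjusted p = 0.0516). Over all 28 members that did not pass, the log2 change ran from -0.74 for Slc2a3 to 1.44 for Adm.

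The lactate transporters parted. Slc16a1 was at 662 and 929 in GOF cells, against 1987 and 1884 in Inv cells (log2 change -1.30 ± 0.17, limma adjusted p = 0.000924). Slc16a3 was at 450 and 211, against 148 and 104 (log2 change 1.31 ± 0.35, limma adjusted p = 0.0284). Ldha was at 6745 and 5691, against 6075 and 5774, with overlapping pairs, and Ldhb at 1203 and 1729, against 1093 and 1116 (log2 change 0.38 ± 0.19). Of the kinases, Pdk3 fell (941 and 778, against 1200 and 1145; log2 change -0.45 ± 0.12, limma adjusted p = 0.0321), while Pdk1 was at 3703 and 3183, against 3943 and 3667.

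All 3 prolyl hydroxylases rose. Egln3 was at 1794 and 1896 in GOF cells, against 651 and 646 in Inv cells (log2 change 1.51 ± 0.11, limma adjusted p = 2.31e-05). Egln1, the main oxygen sensor of HIF-1alpha in most cells, was at 2254 and 2364, against 1634 and 1798 (log2 change 0.43 ± 0.10, limma adjusted p = 0.0161). Egln2 was at 945 and 1903, against 685 and 572 (log2 change 1.10 ± 0.25, limma adjusted p = 0.014), with its GOF libraries far apart. The alpha subunits did not pass: Hif1a was at 3432 and 3372 in GOF cells, against 3261 and 3911, and Epas1 at 986 and 1165, against 1659 and 1689 (log2 change -0.64 ± 0.25, limma adjusted p = 0.11).

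All 8 hypoxia targets had a positive log2 change, and 3 passed. Car9, a membrane enzyme that limits acid build-up and a clinical hypoxia marker, was at 77 and 81 in GOF cells, against 16 and 21 in Inv cells (log2 change 2.05 ± 0.39, limma adjusted p = 0.00592). These Inv values are low, since 3 reads are worth 6.83 and 6.77 there. An antisense gene on the opposite strand shares 9.29% of the Car9 exon bases and averaged 19.6 over the 10 libraries. Bnip3 was at 693 and 822, against 358 and 396 (log2 change 1.00 ± 0.17, limma adjusted p = 0.0036), and its antisense neighbour at 364 and 463, against 201 and 240. P4ha1, which hydroxylates collagen prolines, was at 1972 and 2067, against 1259 and 1276 (log2 change 0.67 ± 0.12, limma adjusted p = 0.00473). P4ha2 was at 255 and 229, against 117 and 125 (log2 change 0.99 ± 0.31, limma adjusted p = 0.055), Ankrd37 at 121 and 115, against 44 and 95, Bnip3l at 3215 and 4399, against 2874 and 3080, and Adm at 22 and 52, against 10 and 14. These 4 members did not pass the test. Vegfa was at 835 and 874, against 858 and 773, with overlapping pairs.

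**Figure D4:**
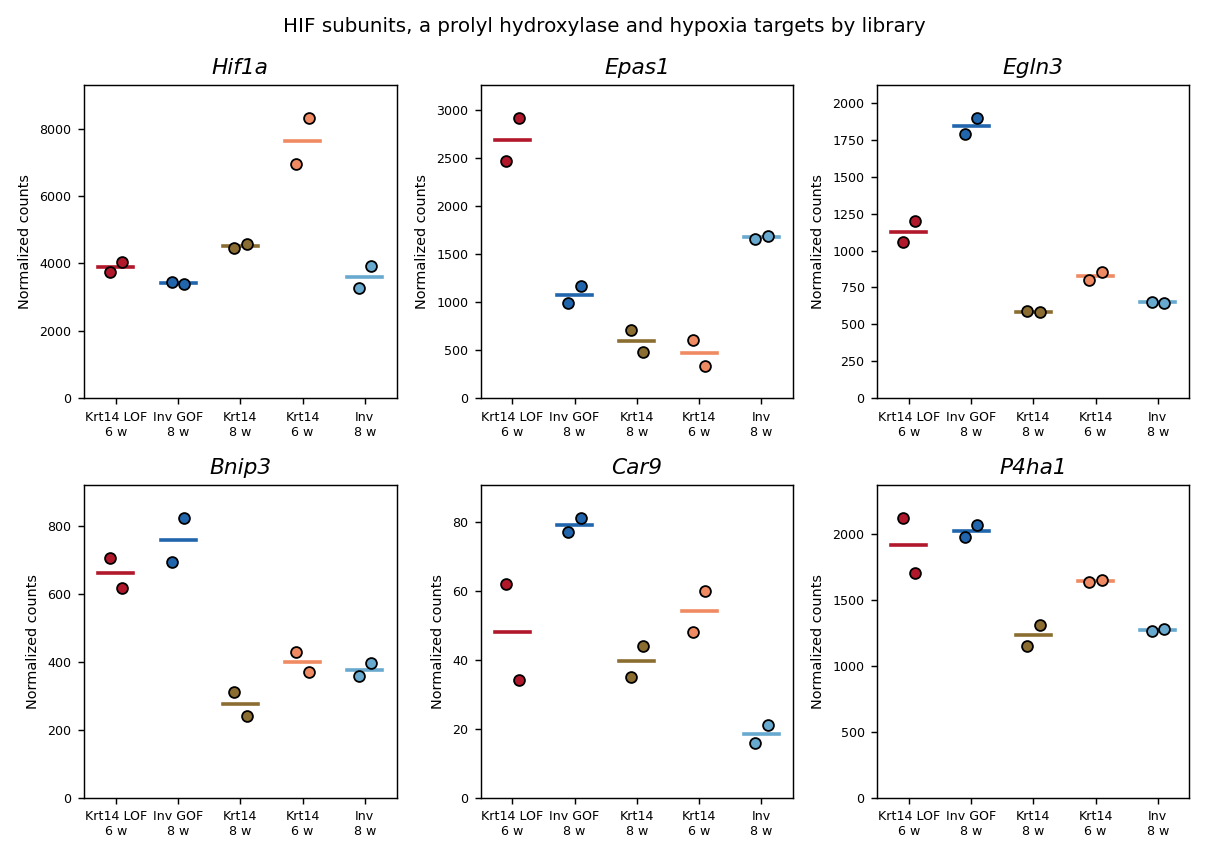
Normalized counts of the 2 HIF alpha genes, Egln3 and 3 hypoxia targets in each library (points) with the mean of each pair (bars), with groups along the horizontal axis. The means of Egln3, Bnip3, Car9 and P4ha1 are highest in GOF cells, that of Epas1 in LOF cells and that of Hif1a in Krt14 6-week cells.

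Of these 12 calls, 6 held whichever of the 4 libraries was left out: those of Slc2a1, Pfkp, Slc16a1, Egln3, Bnip3 and P4ha1. Without the first Inv library the test was missed by Pkm (limma adjusted p = 0.0935), Slc16a3 (0.0773), Pdk3 (0.165), Egln1 (0.125), Egln2 (0.0653) and Car9 (0.0583). Without the second Inv library it was missed by Pkm (0.241), Slc16a3 (0.212), Pdk3 (0.126), Egln1 (0.0577) and Egln2 (0.133). Without the first GOF library Pkm (0.106) and Slc16a3 (0.101) missed, and without the second, which stood apart, Pdk3 did (0.121), leaving 11 members called. With the Xist level as a covariate Slc16a1 alone kept its call (log2 change -2.39, limma adjusted p = 0.0448), and with only these 2 groups in the fit Slc2a1 and Egln3 were the 2 called.

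All 10 S phase genes fell in GOF cells (sums 14036 and 10768, against 25492 and 25737), 8 of 9 sebocyte markers fell (48527 and 64480, against 167204 and 169196), and 6 of 10 dissociation stress genes rose (25055 and 37290, against 19930 and 16258). The endothelial markers summed to 509 and 1643, against 508 and 500. The 8 fibroblast markers summed to 39234 and 16733 in GOF cells, against 19751 and 21644, with 1 called lower. Their part in the hypoxia values was not tested.

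The comparisons of Survivin loss and gain share no library, though driver and time also differ between them. Slc2a1, Pfkp, Pkm and Slc16a3 were called lower in LOF cells and higher in GOF cells, which is 4 of the 13 that fell in LOF and 4 of the 10 that rose in GOF. This pair of calls was made for 10% of the members and 1.43% of all genes tested. For none of the 4 did both calls hold with only the 2 groups compared in each fit. Slc2a1 then lost its LOF call (limma adjusted p = 0.0527), and Pfkp (0.0857), Pkm (0.184) and Slc16a3 (0.195) their GOF calls. With the Xist covariate all 4 lost both calls. Slc16a1 fell in both, as did 1.87% of all genes tested. Egln3 and Bnip3 rose in both (5% of the members and 1.75% of all genes tested). Neither comparison called 13 members, 32.5% of the list, against 60.9% of all genes tested. The difference between the changes was not tested.

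The drivers were compared at 8 weeks in cells whose genotype names no Survivin allele. Birc5 itself was at 1005 and 926 in Krt14 cells, against 237 and 265 in Inv cells (log2 change 1.94 ± 0.28, limma adjusted p = 0.000726). Krt14 cells had more mRNA of the whole lower glycolysis block, of Ldha, Slc2a1 and Slc16a3, and less of Pdk1, Pdk2, Pfkm and Epas1 than Inv cells. In all, 11 members were higher and 4 lower, 37.5% of the list, where 19.6% of all genes were called (8.18% higher and 11.4% lower). The list's median log2 change was 0.12, against -0.10 for all genes. These Inv libraries also served as the control of the GOF cells, so both comparisons share them.

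Slc2a1 was at 3649 and 4129 in Krt14 cells, against 1254 and 1202 in Inv cells (log2 change 1.66 ± 0.13, limma adjusted p = 1.1e-05), the largest change of any member here. Eno1 was at 5888 and 5858, against 2565 and 2342 (log2 change 1.26 ± 0.13, limma adjusted p = 9.61e-05), and its copy Eno1b at 1116 and 1084, against 492 and 448. Ldha was at 10311 and 10216, against 6075 and 5774 (log2 change 0.79 ± 0.13, limma adjusted p = 0.00193). The other lower enzymes had log2 changes between 0.53 and 0.75, with Gapdh at 6758 and 6924, against 4815 and 4652, and Pgk1 at 2393 and 2459, against 1425 and 1459. Pgam1 was at 889 and 949 in Krt14 cells, against 679 and 531, and Pkm at 15285 and 15270, against 10100 and 9053.

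Pfkp was at 2765 and 2920 in Krt14 cells, against 1416 and 1432 in Inv cells (log2 change 1.00 ± 0.11, limma adjusted p = 0.000114), and Slc16a3 at 308 and 472, against 148 and 104 (log2 change 1.61 ± 0.35, limma adjusted p = 0.00803). Pfkl (961 and 918, against 633 and 556) and Hk1 (1435 and 1474, against 1056 and 1098) were higher with log2 changes of 0.66 and 0.43. On the other side, Pdk1 was at 1793 and 1778, against 3943 and 3667 (log2 change -1.09 ± 0.12, limma adjusted p = 8.97e-05), and Epas1 at 708 and 480, against 1659 and 1689 (log2 change -1.52 ± 0.25, limma adjusted p = 0.00176). Pdk2 (183 and 171, against 314 and 249) and Pfkm (368 and 312, against 651 and 554) were lower by smaller margins, with log2 changes of -0.66 and -0.82. Hif1a was at 4465 and 4570, against 3261 and 3911 (log2 change 0.34 ± 0.11, limma adjusted p = 0.0597).

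None of the 8 hypoxia targets passed between the drivers by limma, where 4 had an unadjusted p under 0.05, and none did by limma-voom on recovered reads. Car9 was at 35 and 44 in Krt14 cells, against 16 and 21 in Inv cells (log2 change 1.06 ± 0.39, limma adjusted p = 0.0813), Bnip3 at 310 and 240, against 358 and 396, P4ha1 at 1150 and 1309, against 1259 and 1276, and Vegfa at 961 and 990, against 858 and 773. Of the 15 calls, 8 held whichever library was left out, those of Slc2a1, Pfkp, Pgk1, Eno1, Pkm, Ldha, Pdk1 and Epas1. Hk1 (limma adjusted p 0.152 to 0.203) and Pfkl (0.061 to 0.144) lost theirs each time. Without the first Krt14 8-week library Pgam1 (0.0828) and Pdk2 (0.0857) missed, and without the second Pgam1 (0.138), Pdk2 (0.139), Pfkm (0.0553), Gapdh (0.0647) and Slc16a3 (0.0933), leaving 8 called. Without the first Inv library Pfkm (0.0562) and Pdk2 (0.186) missed, and without the second Gapdh (0.0695), Pgam1 (0.184) and Slc16a3 (0.095). Of 12 mitosis genes, 10 were higher in Krt14 cells (sums 57236 and 51371, against 36206 and 38630), as were 8 of 10 dissociation stress genes (59777 and 60346, against 19930 and 16258) and 8 of 12 keratinocyte markers (465592 and 469826, against 338890 and 335518). Lower were 8 of 9 sebocyte markers (37844 and 34794, against 167204 and 169196) and 4 of 8 melanocyte markers (1374 and 1538, against 2407 and 2505). The 8 fibroblast markers summed to 6847 and 5889 in Krt14 cells, against 19751 and 21644, with 1 called higher and 3 lower. Their part was not tested.

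Between 8 and 6 weeks of the Krt14 driver few members were called. Pfkp, Hif1a and Egln3 were lower at 8 weeks, 3 members or 7.5% of the list, where 4.88% of all genes were called (4.02% higher and 0.855% lower), and no member was higher by limma or by limma-voom (4 with an unadjusted p under 0.05). Hif1a was at 4465 and 4570 at 8 weeks, against 6955 and 8300 at 6 weeks (log2 change -0.75 ± 0.11, limma adjusted p = 0.00668). Pfkp was at 2765 and 2920, against 3975 and 4422 (log2 change -0.56 ± 0.11, limma adjusted p = 0.0195), and Egln3 at 588 and 584, against 798 and 855 (log2 change -0.49 ± 0.11, limma adjusted p = 0.0353). All 5 lower glycolysis members had negative changes that did not pass, the largest for Pgam1 (-0.45 ± 0.16). Over the list, 27 members had a negative log2 change and 13 a positive one. The list's median was -0.28, against 0.14 for all genes. Before adjustment, the limma p was under 0.05 for 19 lower and 4 higher members.

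Each of these 3 calls was lost when single libraries were left out. Without either Krt14 8-week library, or without the second 6-week library, the limma adjusted p was 0.0648 to 0.0832 for Hif1a, 0.13 to 0.152 for Pfkp and 0.165 to 0.214 for Egln3, and limma called 0 members (8 to 11 had an unadjusted p under 0.05). Without the first 6-week library Egln3 missed (0.074) and 2 members were called. The all-gene median was 0.14 here, and after rescaling by the median of ratios, which brings it near 0, 13 members were lower. Of 9 sebocyte markers, 7 were higher at 8 weeks (sums 37844 and 34794, against 16980 and 16135), as were 4 of 10 dissociation stress genes (59777 and 60346, against 29875 and 29819) and 4 of 8 melanocyte markers (1374 and 1538, against 942 and 901). Their part was not tested. The 6-week libraries also served as the control of the LOF cells.

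GOF cells were lastly set beside Krt14 cells of the same time. Of the 40 members, 15 were higher and 11 lower in GOF cells, 65% of the list, where 27.7% of all genes were called (15.2% higher and 12.5% lower). The list's median log2 change was 0.04, against 0.09 for all genes. All 7 HIF and oxygen sensing members passed, 6 of them higher, as were 5 of the 8 hypoxia targets, while 4 of the 5 lower glycolysis members were lower. Both groups also entered comparisons above, which are therefore not independent of this one.

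Egln3 was at 1794 and 1896 in GOF cells, against 588 and 584 in Krt14 8-week cells (log2 change 1.65 ± 0.11, limma adjusted p = 7.42e-06), and Bnip3 at 693 and 822, against 310 and 240 (log2 change 1.47 ± 0.17, limma adjusted p = 0.000157). P4ha1 was at 1972 and 2067, against 1150 and 1309 (log2 change 0.72 ± 0.12, limma adjusted p = 0.00149), P4ha2 at 255 and 229, against 93 and 108 (log2 change 1.26 ± 0.31, limma adjusted p = 0.0121), and Bnip3l at 3215 and 4399, against 2328 and 2273 (log2 change 0.71 ± 0.13, limma adjusted p = 0.00303). Adm was called as well, at 22 and 52 in GOF cells, against 7 and 8, which is 3 reads in each Krt14 library, so no fold is given. Egln1, Egln2, Epas1, Arnt and Vhl were higher, with log2 changes between 0.38 for Egln1 and 1.15 for Egln2, and Vhl was at 364 and 481, against 260 and 281. Hif1a was lower (3432 and 3372, against 4465 and 4570; log2 change -0.41 ± 0.11, limma adjusted p = 0.0206).

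Eno1 was at 2953 and 2184 in GOF cells, against 5888 and 5858 in Krt14 8-week cells (log2 change -1.21 ± 0.13, limma adjusted p = 0.000119), and Pgam1 at 534 and 406, against 889 and 949 (log2 change -0.98 ± 0.16, limma adjusted p = 0.00127). Tpi1 was at 1700 and 1220, against 2494 and 2380 (log2 change -0.76 ± 0.15, limma adjusted p = 0.00351), and Ldha at 6745 and 5691, against 10311 and 10216 (log2 change -0.73 ± 0.13, limma adjusted p = 0.00241). Slc16a1, Hk2, Pgk1, Aldoa, Gapdh and Slc2a3 were the other glycolytic members called lower, with log2 changes from -0.40 for Gapdh to -1.32 for Slc2a3 (22 and 13, against 56 and 34). Pdk1 was at 3703 and 3183 in GOF cells, against 1793 and 1778 (log2 change 0.94 ± 0.12, limma adjusted p = 0.000214), and Pdk2, Ldhb and Pfkm were higher too. Slc2a1 did not pass, at 3497 and 3661 in GOF cells, against 3649 and 4129 (log2 change -0.12 ± 0.13).

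Of these 26 calls, 13 held whichever library was left out, and the counts were 17 and 15 without the first or the second Krt14 library and 27 and 20 without the first or the second GOF library. Without the second GOF library the limma adjusted p was 0.0507 for Hif1a, 0.0725 for Ldhb, 0.0778 for Vhl, 0.0868 for Hk2, 0.093 for Gapdh, 0.101 for Epas1, 0.147 for Slc2a3 and 0.204 for Adm. Without the first GOF library Pfkm missed (0.0502). Leaving out the first Krt14 library ended the calls of Slc2a3 (0.22), Hk2 (0.0685), Gapdh (0.093), Hif1a (0.0905), Arnt (0.0737), Egln1 (0.107), Vhl (0.111), Adm (0.135) and P4ha2 (0.0863). Leaving out the second ended those of Hk2 (0.0909), Pfkm (0.129), Gapdh (0.117), Ldhb (0.103), Slc16a1 (0.0839), Hif1a (0.113), Epas1 (0.201), Arnt (0.0754), Egln1 (0.0737), Vhl (0.0633) and Adm (0.105). With the Xist covariate limma called 0 members, where 6 had an unadjusted p under 0.05. All 12 mitosis genes, 9 of 10 S phase genes and 6 of 10 dissociation stress genes were lower in GOF cells. Of 8 endothelial markers tested, 4 were higher and 1 lower, and of 12 keratinocyte markers 1 was higher and 5 lower. The 8 fibroblast markers summed to 39234 and 16733 in GOF cells, against 6847 and 5889, with 1 called higher and 1 lower. Their part was not tested.

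Within isozyme sets, shares of the summed values per kilobase of exon showed the same groupings, as a description with no test. Epas1 made up 41% and 43.3% of the Hif1a and Epas1 sum in LOF cells, against 8.43% and 4.09% in Krt14 6-week cells. Its share was 23.3% and 26.7% in GOF cells, 14.3% and 9.97% in Krt14 8-week cells and 34.9% and 31.3% in Inv cells. Ldhb made up 18.4% and 27.8% of lactate dehydrogenase in LOF cells, against 7.77% and 8.51%, and 27.3% and 39% in GOF cells, against 27.5% and 29% in Inv cells. Pfkm made up 31.3% and 38.7% of phosphofructokinase in LOF cells, against 14.8% and 13.2%, and 37.3% and 32.9% in GOF cells, against 49.3% and 46.6% in Inv cells. Aldoc stayed a minor aldolase everywhere, at 7.46% and 6.85% in LOF cells, against 1.1% and 1.31%. In the 8-week driver comparison Pfkm was at 23.9% and 20.8% in Krt14 cells, against 49.3% and 46.6% in Inv cells.

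**Figure D5:**
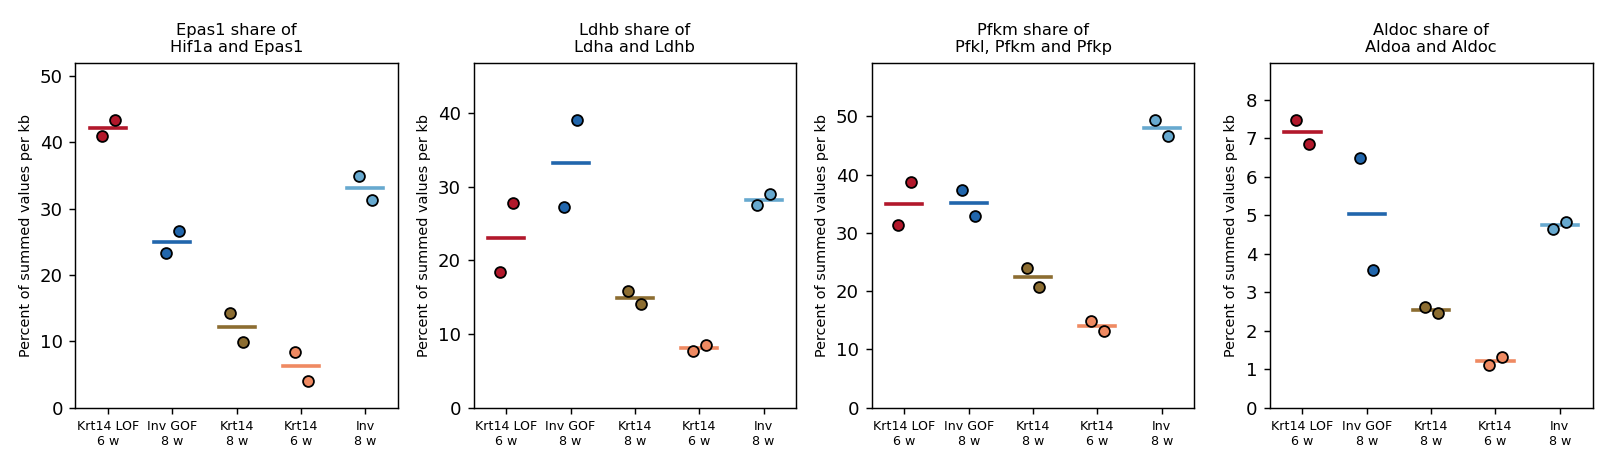
Share of 1 isozyme or subunit in the summed values per kb of its set, in percent, for each library (points) with the mean of each pair (bars). LOF cells lie above Krt14 6-week cells in all 4 panels, and Inv cells lie above Krt14 8-week cells in all 4.

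Neighbouring pathways were counted from lists of other genes. In LOF cells 9 of 11 glycogen genes rose, with a median log2 change of 0.87, led by the phosphorylase kinase subunit Phka1 (305 and 350, against 79 and 70; log2 change 2.12 ± 0.22, limma adjusted p = 5.31e-05) and the phosphorylase Pygb (7193 and 5707, against 3043 and 3068; log2 change 1.07 ± 0.22, limma adjusted p = 0.0045). Of 16 genes of pyruvate entry, 6 rose and 1 fell, with the transporter Slc16a7 at 4619 and 6065, against 2618 and 1480. Of 35 other hypoxia targets tested, 9 rose and 12 fell. Of all genes tested, 19.5% were called higher and 11.4% lower. Among those that fell were Stc1, a secreted glycoprotein (28 and 25, against 1305 and 1868; log2 change -5.83 ± 0.31, limma adjusted p = 1.61e-06) and the growth factor Tgfa (216 and 235, against 2274 and 2015; log2 change -3.24 ± 0.32), while Ppfia4 rose (223 and 185, against 17 and 13; log2 change 3.69 ± 0.29). Among 13 regulators, Myc fell (835 and 871, against 2265 and 2423; log2 change -1.46 ± 0.29, limma adjusted p = 0.00339) and Mycn rose (4797 and 4683, against 2086 and 1237; log2 change 1.56 ± 0.43, limma adjusted p = 0.0186).

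In GOF cells 6 of 10 pentose phosphate genes fell, with transaldolase Taldo1 at 729 and 682, against 1591 and 1640 in Inv cells (log2 change -1.20 ± 0.12, limma adjusted p = 0.000103) and Pgd at 1095 and 882, against 2035 and 1908 (limma adjusted p = 0.000492). Of 16 pyruvate entry genes, 5 fell and 1 rose: Pdk4, the kinase typical of fasting, was at 140 and 817 in GOF cells, against 14 and 10 (log2 change 4.73 ± 0.73, limma adjusted p = 0.00214). Of 35 other hypoxia targets tested, 11 rose and 1 fell, with a median log2 change of 0.49, against -0.01 for all genes. Of all genes tested, 6.87% were called higher and 8.4% lower. Ppfia4 was at 520 and 869 in GOF cells, against 132 and 143 (log2 change 2.28 ± 0.29, limma adjusted p = 0.00063), Ndrg1 at 1020 and 2460, against 474 and 441 (log2 change 1.79 ± 0.30), Ddit4 at 1640 and 5254, against 1145 and 967 (log2 change 1.48 ± 0.38), and Bhlhe40 at 2203 and 4701, against 1204 and 1125 (log2 change 1.47 ± 0.28). In Ndrg1, Ddit4, Bhlhe40 and Pdk4 the second GOF library was far above the first, as it was for Txnip, an inhibitor of glucose uptake (19169 and 73510, against 6749 and 6666). Trp53 fell (1037 and 692, against 2103 and 1879; log2 change -1.23 ± 0.17, limma adjusted p = 0.00107).

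Between Krt14 and Inv cells at 8 weeks, 9 of 16 pyruvate entry genes and 6 of 11 glycogen genes were lower, and of 35 other hypoxia targets 10 were higher and 5 lower, with Tgfa at 1171 and 1329 in Krt14 cells, against 151 and 143. Between 8 and 6 weeks, 1 of those 35 targets was higher and 3 lower, with Stc1 at 535 and 393 at 8 weeks, against 1305 and 1868 at 6 weeks. In GOF against Krt14 8-week cells 12 were higher and 7 lower, with Rora showing a log2 change of 2.58 ± 0.16 (limma adjusted p = 4.25e-06). The targets called made up 42.9%, 11.4% and 54.3% of the 35 in these comparisons, in that order. Of all genes tested, 19.6%, 4.88% and 27.7% were called.

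Some counts carry a limit from neighbouring genes. Exon bases of 14 members are shared with another gene, by 10% or more in 5: Ankrd37, Bnip3, Pkm, Gpi1 and Pfkm. For Pkm and Pfkm the other gene lies on the same strand, so no strand setting would part the reads there. For Ankrd37, Bnip3 and Gpi1 it lies on the opposite strand. Reads of both genes may be mixed there, since the strand setting is not given in the sources used here.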

How the data were processed

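The 10 libraries of FACS-sorted epidermal cells fall into 5 groups of 2. Reads were handled with STAR and HTSeq on GRCm38/mm10, per the submitters' processing notes; no version, annotation release or strand setting is given there. The authors deposited 1 table of normalized counts, treated here as a score: each library sums to about the same total, and 99.3% to 99.9% of the values above 0 and below 20000 in a library equal, exactly, a whole number of reads times what 1 read is worth, rounded up, which gives the depth.

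Values were taken as log2(value + 1) and fitted with limma 3.58.1 (R 4.3.3) over all 10 libraries, keeping the 21995 genes at 10 or more in at least 2 libraries, with Benjamini-Hochberg adjustment and a threshold of 0.05. An exact permutation test of 2 against 2 cannot go below a p of 0.333. All 40 members passed the filter. Coordinates and lengths are GRCm38. Members and gene lists were chosen with earlier results of these data known. Beyond the members, up to 4 called genes per pathway list with the largest changes, a mean of at least 50 and groups that do not overlap were named for the LOF and GOF comparisons, and up to 2 for the others. Alternatives included limma-voom on recovered reads, rescaling, filters, single libraries left out and Xist as a covariate. A single gene picked by this rule is left out of the text.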

Additional observations from a re-analysis of the deposited data

How the results depend on the processing

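Over 22 other settings, single members gave 1247 values for their calls: 1050 kept direction and threshold, 179 kept direction only and 18 reversed. All 18 reversals came with the Xist covariate, which was nearly confounded with the Survivin alleles. For LOF these log2 changes were Pfkl 0.53, Eno1 0.37, Pkm 0.11, Ldhb -0.40, Slc16a3 0.41 and Arnt -0.084. For GOF against Inv cells they were Pdk3 0.17 and Egln2 -0.72. For GOF against Krt14 cells they were Slc2a3 0.76, Hk2 0.46, Tpi1 0.45, Gapdh 0.24, Ldha 0.13, Ldhb -0.21, Egln2 -0.96, Vhl -0.18, Bnip3l -0.30 and Adm -0.30. The members called with it were 2 (1 higher, 1 lower) for LOF, 1 (0 higher, 1 lower) for GOF against Inv, 9 (1 higher, 8 lower) for 8 against 6 weeks and 0 (0 higher, 0 lower; limma, 6 with an unadjusted p under 0.05) for GOF against Krt14, with 7 lower for Krt14 against Inv. The cause was not tested.

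With only the 2 groups compared in the fit, 2 members (2 higher, 0 lower) were called for GOF against Inv, 11 (6 higher, 5 lower) for GOF against Krt14, 9 lower for Krt14 against Inv, and 0 (0 lower; limma, 27 with an unadjusted p under 0.05) for 8 against 6 weeks, with fewer samples to estimate the spread. For LOF 19 members were called, without Slc2a1 (log2 change -0.69, limma adjusted p = 0.0527), Pfkl (0.134) and Ldhb (0.0701). For 8 against 6 weeks the lower count was 5 with a filter at 50, 13 with the median of ratios and 5 with a robust fit. For GOF against Inv it was 1 with no filter and 4 with quantile normalization. Leaving out single libraries gave 17 to 21 members for LOF (6 to 7 higher, 11 to 14 lower), 6 to 18 for GOF against Inv (5 to 11 higher, 1 to 7 lower), 8 to 11 for Krt14 against Inv (6 to 9 higher, 2 to 4 lower), 0 to 2 for 8 against 6 weeks (0 to 2 lower) and 15 to 27 for GOF against Krt14 (8 to 14 higher, 7 to 13 lower). The lone sample left was assumed to vary like the other groups. GOF against Inv had 18 without the first GOF library, 6 without the first Inv library and 7 without the second. By limma, 8 against 6 weeks had 0 without the first Krt14 8-week library (8 with an unadjusted p under 0.05), the second (11) or the second 6-week library (11).

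With limma-voom the counts were 22, 14, 18, 4 and 25 in the order LOF, GOF against Inv, Krt14 against Inv, 8 against 6 weeks and GOF against Krt14. With a replicate block they were 22, 14, 17, 4 and 26, and Hk1 between Krt14 and Inv cells lost its call (limma adjusted p = 0.0585). Libraries of the same number shared only the number, their deviations correlating at -0.0542 to 0.0407. With 2 libraries a group, a miss may reflect the spread estimate, and members near 3 reads, such as Adm, cannot show a fall.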
